A study of Chlamydomonas reinhardtii with 27 samples.

Results

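The 150 transcripts described here were assembled by the authors from reads of C. reinhardtii GY-D55, a wild-type strain of a unicellular freshwater green alga, and were almost without reads in control cells while being counted in salt-treated cells. They were taken from 4583 assembled transcripts in a table of 19267 identifiers. The files name each of them by a fixed prefix and a running number, and they are called here by that number. Of these, 934 had at most 3 counts summed over the 3 control libraries, and the 150 with the largest count summed over the 24 salt libraries were kept. Control counts and summed salt counts therefore chose the transcripts, so their difference between control and salt is given as a description, and only differences among the salt time points were tested.

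Cells grew in BG-11 medium in a cycle of light and dark to the mid-logarithmic phase, before NaCl was added to 200 mM. Poly(A) RNA was sequenced in 27 libraries of 9 conditions, namely 3 samples of control cells without NaCl and 3 for each of 8 salt time points (2, 4, 8, and 12 h, then 24, 48, 72, and 96 h). The study speaks of triplicates, and the labels number the samples without naming separate cultures, so p-values measure the spread between these samples. There was 1 control group, and its sampling time is not given in the sources used here. Salt, culture age, and time of day therefore cannot be told apart in any comparison with it. Among the salt time points, neither can time under salt and culture age. Time of day cannot be told apart from them either in steps up to 24 h. The same holds where 48, 72, and 96 h are set against 2 and 4 h.

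A transcript assembler joins overlapping aligned reads into transcripts that the gene annotation lacks. Such a transcript can be a gene that was never annotated, a noncoding RNA, an extension of a neighboring gene, or RNA from the opposite strand of a known gene. Whether strand was used in the counting is not given in the sources used here, so reads of a transcript and of a gene overlapping it cannot be told apart. Salt stress in Chlamydomonas is known to slow growth, to raise the osmolyte glycerol, and to hold cells together in palmelloids. In bulk RNA, a low count from few cells and a low count per cell cannot be told apart. None of the 150 transcripts matched the reference gene table (0 of 150), and 0 of the 14 assembled transcripts that the study lists as homologs of transcription factors was among them, so no function is given for any of them.

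The libraries held between 15286332 and 24783139 counts (median 18749997). Replicate 1 at 2 h and replicate 1 at 72 h stood apart, with counts on 14921 and 15274 identifiers, the fewest of all libraries, against 15571 to 17438 in the others. Counts on noncoding ENSRNA identifiers took from 0.00378% to 0.00442% of the control libraries and up to 0.0533% at 4 h, and their part in the results was not tested.

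The 150 transcripts were mostly faint. Their summed salt counts ran from 9122 for transcript 1339 to 72 for transcripts 2890 and 3386, with a median of 131.5. Over 1000 counts were reached by 8 transcripts, 37 had 200 or more, 68 had 100 to 200, and 45 had fewer than 100. The leading transcript alone held 9122 of their 45686 counts, and the 10 most counted held 48.3%. The median count of a transcript in a salt library was 4, and 24.4% of the 3600 values were 0. In all 24 salt libraries, 12 of the 150 transcripts had a count, and transcripts 1339 and 1382 were the 2 with at least 10 counts in each. In the 3 libraries of at least 1 time point, 58 transcripts had 10 counts or more, and 92 reached this at no time point.

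The salt threshold cut through a dense range. The first transcripts left out, transcripts 1816 and 1250, had 71 and 70 salt counts. The control threshold left out transcript 3126, with 4 control and 737 salt counts, and transcript 474, with 4 control and 279 salt counts. In all, 23 transcripts with 4 control counts had at least as many salt counts as the last one kept.

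In the control libraries, 69 of the 150 transcripts had no count, 25 had 1 count, 25 had 2, and 31 had 3, together 168 counts. A count was found for 59 transcripts in control replicate 1, for 19 in replicate 2, and for 27 in replicate 3, and replicate 1 held 93 of the 168 counts. Over the 3 control libraries, a count of 0 allows up to 3 counts, which is 0.0513 CPM (counts scaled to a common library total). Such limits and the intervals given below cover counting error only. Ratios to control are a description, since control counts chose the transcripts and the salt time with the highest mean was taken.

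**Figure D1:**
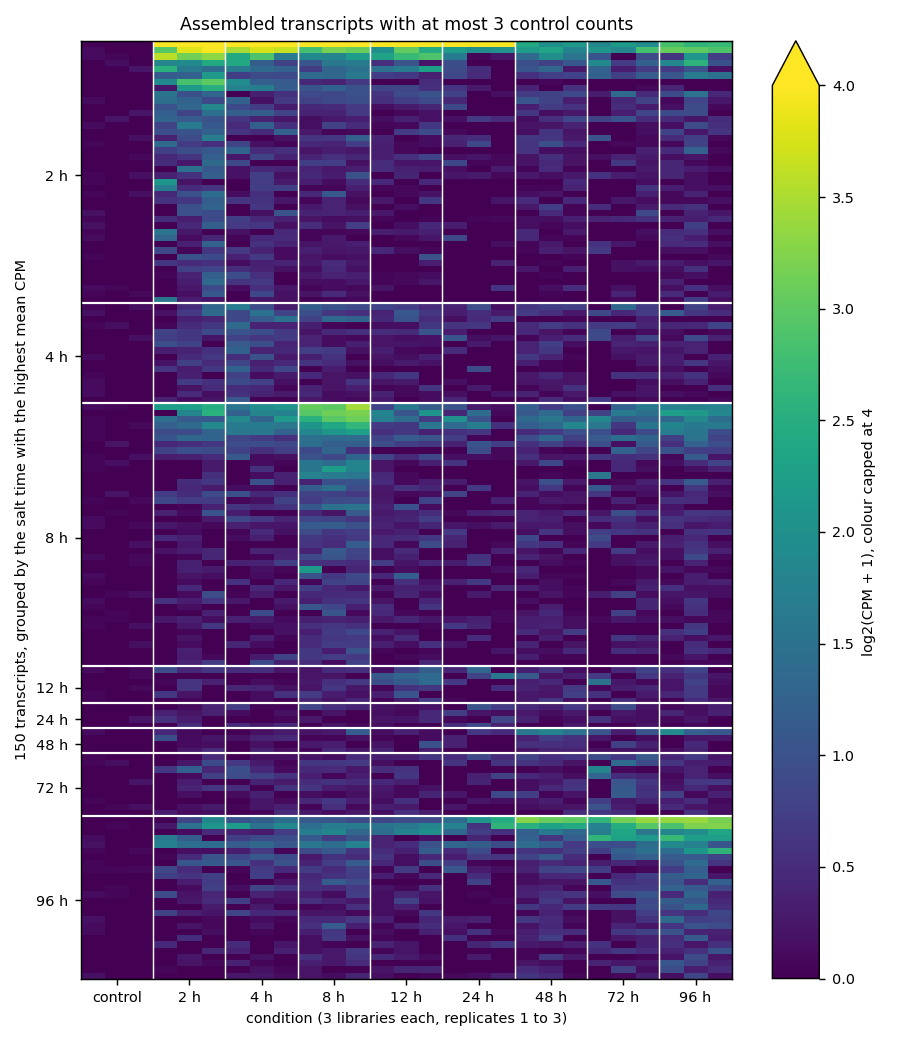
Level of each of the 150 assembled transcripts (rows) in each of the 27 libraries (columns), as log2(CPM + 1) with the color capped at 4. Rows are grouped by the salt time point with the highest mean CPM: 42 transcripts were highest at 2 h, 42 at 8 h, and 26 at 96 h, and the 3 control columns are dark by the way the rows were chosen.

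The same rule was applied with each salt condition in the place of control to show how far the control stood apart. With 24 h in that place, 740 assembled transcripts had at most 3 counts there and a count elsewhere, which was more than the 569 for control, and the other salt conditions gave from 414 (8 h) to 618 (72 h). Few transcripts missing from a salt condition were abundant elsewhere. The largest count elsewhere was 9122 for control and between 1036 and 1192 for the salt conditions. The 150 most counted summed to 45686 for control, to 26950 for 24 h, and to 9747 for 8 h. The control was thus not the condition with the most transcripts near 0, but the transcripts near 0 in it held the most counts elsewhere.

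A similar set existed among the annotated genes. By the same rule, 1269 annotated CHLREDRAFT genes had at most 3 control counts, and the 150 most counted of them had salt sums from 138 to 18461, with a median of 292. These genes had a median length of 999 bases, against 1298 bases over 13960 annotated genes. The rule used counts not scaled by length, and its part in the lengths of either set was not tested. The assembled transcripts of the set were shorter, with a median of 602.5 bases (quartiles 435.75 and 905.25), while the 4073 other assembled transcripts had a median of 1304 bases. Under 500 bases were 56 of the 150 (37.3%), against 19.8% of the other assembled transcripts. The lengths, computed as count over FPKM, ranged from 211 bases (transcript 2140) to 7775 bases (transcript 1493).

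Summed over the 150 transcripts, 1.54 to 4.13 CPM fell on the set in control, 104 to 207 at 2 h, 95.4 to 117 at 4 h, and 137 to 154 at 8 h. The share was then lower, at 74.3 to 93.3 CPM at 12 h and 50.8 to 63.3 at 24 h. It was 60.9 to 74.7 at 48 h, 69.2 to 85.5 at 72 h, and 84.5 to 131 at 96 h. The mean was 155 ± 51.9 for 2 h, 148 ± 9.29 for 8 h, 57.5 ± 6.28 for 24 h, and 106 ± 23.4 for 96 h (SD, n = 3). All 3 libraries of 8 h were thus above all 3 of 24 h, with a ratio of the means of 2.58, while those of 2 h overlapped with those of 4 and 8 h. With TMM library sizes (totals adjusted for composition) they did not, at 139.8 to 185 for 2 h, 95.1 to 103 for 4 h, and 116 to 132 for 8 h. The ratio depended on the scale: it was 1.87 with TMM library sizes and 20.9 for the median CPM over the 150 transcripts. At 24 h that median was 0.0589, 0, and 0 CPM, so the ratio of 20.9 is set against values at the floor. Without replicate 1 the mean at 2 h was 181 and that at 72 h was 80.6. Without transcript 1339, the 2 h mean was 108 and the 8 h mean 118. The annotated genes chosen by the same rule had 340 ± 31.5 CPM at 8 h and 58.6 ± 15.2 at 24 h (SD, n = 3).

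**Figure D2:**
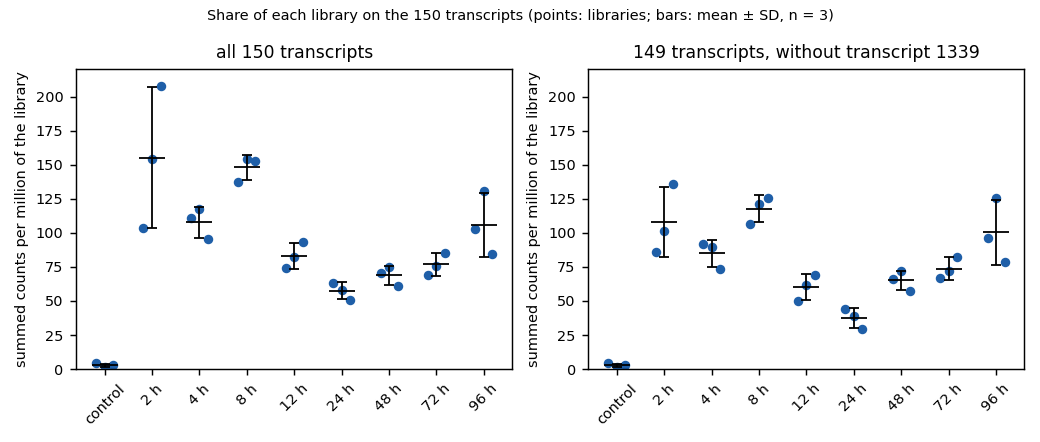
Summed CPM of the 150 assembled transcripts in each library, by condition, for all 150 (left) and without transcript 1339 (right). Points are libraries and bars the mean ± SD (n = 3). The 8 h libraries (137 to 154 CPM) lie above the 24 h libraries (50.8 to 63.3 CPM) with all 150.

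Among the salt libraries, those with counts on more identifiers mostly had counts on more of the set. At 8 h, 139 to 147 of the 150 transcripts had a count in a library, beside 17349 to 17438 identifiers with a count. At 24 h these were 57 to 76 transcripts beside 15571 to 16298 identifiers. Replicate 1 at 2 h had 76 transcripts beside 14921 identifiers and replicate 1 at 72 h had 67 beside 15274, while the other libraries of those times had 102 to 136 transcripts. The control libraries, with 16454 to 16993 identifiers, had 19 to 59 of the transcripts. The 12 h libraries covered a similar number of identifiers, 16676 to 17016, and had 111 to 126 of the transcripts. As the rule held the control side low, this difference cannot show what part coverage had in control. At 24 h, 41 transcripts had no count in all 3 libraries, against 9 for 72 h, 8 for 12 h, and 0 for 8 h. The part of library coverage in the pattern among salt time points was not tested.

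**Figure D3:**
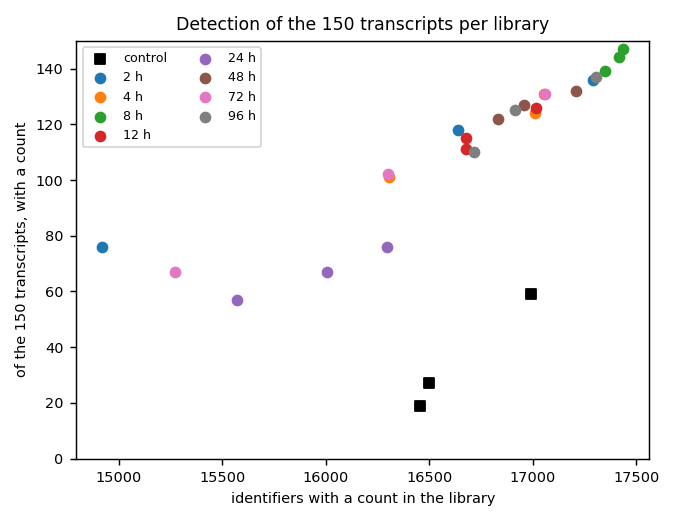
Number of the 150 transcripts with a count (vertical axis) against the number of all identifiers with a count (horizontal axis), 1 point per library, colored by condition. The 8 h libraries have 139 to 147 transcripts, the 24 h libraries 57 to 76, and the control libraries 19 to 59 at 16454 to 16993 identifiers. The control points are low by the way the transcripts were chosen.

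The time of the highest mean CPM fell mainly on 3 time points. It was 2 h for 42 transcripts, 8 h for 42, and 96 h for 26. It was 4 h for 16, 72 h for 10, 12 h for 6, and 24 h and 48 h for 4 each. The lowest mean fell on 24 h for 64 of the 150. The spread between replicates was wide for many of them, and the time of the highest mean is a description.

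Whether the level differed among the 8 salt time points was tested for the 110 of the 150 transcripts that passed the filter on low counts, in 1 fit across all 16443 genes that passed it. The other 40 were not tested. With p-values adjusted by the Benjamini-Hochberg method, edgeR's quasi-likelihood test called 46 of the 110 (41.8%) as changed among the salt time points, while over all genes tested it called 70.7%. The other assembled transcripts had 1928 calls of 3248 (59.4%), and the annotated genes chosen by the same rule 84 of 149 (56.4%). Of the 10 most counted transcripts 7 were called, of ranks 11 to 50 it was 19 of 40 tested, of ranks 51 to 100 it was 13 of 46, and of the last 50 it was 7 of 14. By the time of the highest mean, 15 of 30 tested transcripts highest at 2 h were called, 14 of 34 highest at 8 h, and 10 of 21 highest at 96 h. These groups were formed from the same salt libraries as the test, so the counts are a description. The 110 had to be counted in several salt libraries to enter the test. The least counted could reach this mainly where their counts were gathered in few libraries. Transcript 473, for example, had 19, 11, and 13 of its 93 salt counts at 8 h. The shares called by rank therefore depend on the filter and cannot be set against each other. With both libraries that stood apart left out, 62 of 126 tested were called (49.2%), against 75.7% of all genes in that fit.

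The late time points (48, 72, and 96 h) were then set against the early ones (2 and 4 h), as the study divides its time course. In the same edgeR fit, 13 transcripts were higher late (11.8%) and 25 were lower (22.7%), where over all genes tested 28.7% were higher and 27.6% were lower. The median log2 fold change of the 110 was −0.33, against 0.02 over all genes tested. In 5 of the 38 calls, 1 side of the comparison held 3 counts or fewer. The share lower was thus closer to that over all genes than the share higher was. Of the other assembled transcripts, 28.9% were higher and 19.2% were lower. Of the annotated genes chosen by the same rule, 21.5% were higher and 24.2% were lower. With both libraries that stood apart left out, 18 of 126 were higher (14.3%, against 29.4% of all genes) and 29 lower (23.0%, against 29.1%). Without replicate 2 at 2 h, 20 of 129 tested were higher. Without any 1 of the 3 libraries of 24 h, 20 were higher, of 131 or 132 tested. In each of these fits the share higher was below that over all genes.

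**Figure D4:**
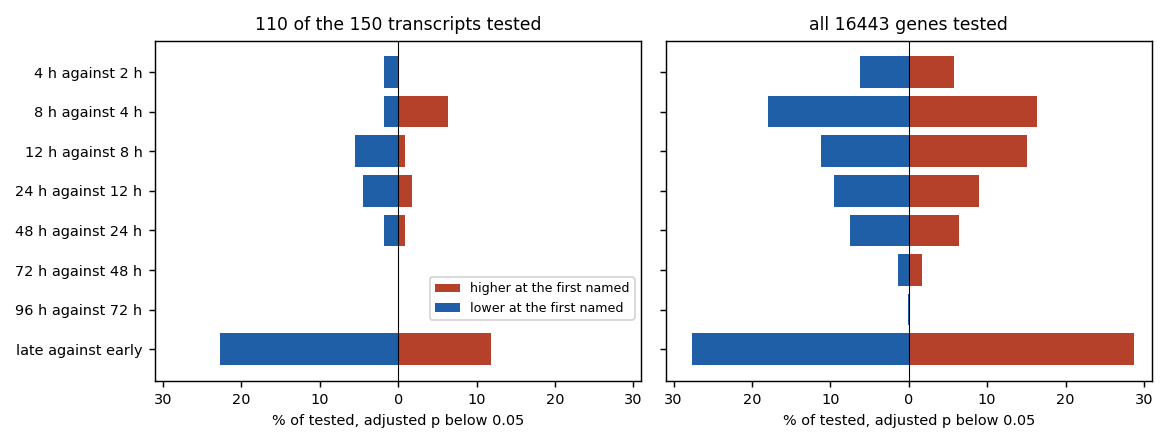
Share of tested genes called (adjusted p below 0.05 by edgeR's quasi-likelihood test) as higher or lower at the first named time, for the 110 tested transcripts (left) and all 16443 genes tested (right). Late is 48, 72, and 96 h and early is 2 and 4 h. The bars of the transcripts are shorter than those of all genes in each comparison in which any was called, and reach 22.7% lower and 11.8% higher for late against early.

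Transcript 1339 (994 bases) was the most counted of the set and was present early. It had no count in the 3 control libraries, 380, 1301, and 1257 counts at 2 h, 391, 614, and 489 at 4 h, and 593, 660, and 408 at 8 h. Counts were 455, 364, and 512 at 12 h, 326, 358, and 371 at 24 h, 86, 58, and 64 at 48 h, 43, 56, and 52 at 72 h, and 107, 84, and 93 at 96 h. Every library up to 24 h was above every library from 48 h on. The pooled level at 2 h, 46.5 CPM, was at least 905-fold higher than the limit that a count of 0 over the control libraries allows. Its FPKM at 2 h, 44.9 ± 18.2 (SD, n = 3), was the highest mean FPKM in the set. The level changed among the salt time points (adjusted p = 3.72e-12, edgeR's quasi-likelihood test). It was lower at 4 h than at 2 h, with overlapping libraries (log2 fold change −1.10 ± 0.25 SE, adjusted p = 0.00469), and again lower at 48 h than at 24 h, where no libraries overlapped (−2.78 ± 0.27 SE, adjusted p = 6.62e-08), and late against early gave −3.04 ± 0.17 (SE, adjusted p = 4.60e-14).

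Transcript 1382 (808 bases) was also highest early. Control libraries had 2, 0, and 0 counts, and those at 2 h had 141, 323, and 257, at 4 h 208, 276, and 255, and at 8 h 114, 161, and 113. The counts were 57, 128, and 96 at 12 h, 61, 53, and 54 at 24 h, 70, 79, and 47 at 48 h, 53, 41, and 109 at 72 h, and 127, 115, and 107 at 96 h. The 2 and 4 h libraries were mostly highest, but late libraries reached into their range. The 2 h level was 333 times that of control (95% counting interval 91.9 to 2755). As the low control count chose the transcript, this interval cannot test a difference from control. Over the salt time points the adjusted p was 3.69e-05, and late against early the level fell by 1.35 on the log2 scale (SE 0.20, adjusted p = 2.66e-06, edgeR's quasi-likelihood test).

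Transcript 414 (2458 bases) followed a less even course. It had 2, 1, and 0 counts in control, 233, 195, and 157 at 2 h, 90, 141, and 47 at 4 h, 51, 50, and 55 at 8 h, and 75, 98, and 135 at 12 h. At 24 h the counts were 36, 1, and 3, at 48 h 31, 58, and 36, at 72 h 17, 0, and 16, and at 96 h 9, 54, and 11. The 2 h libraries were above all others, and the 24 h libraries did not overlap with those of 12 h. From 12 to 24 h it fell by 2.65 on the log2 scale (SE 0.81, adjusted p = 0.0213), and late against early it fell by 2.36 (SE 0.48, adjusted p = 0.000145, edgeR's quasi-likelihood test).

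Transcript 497 (4240 bases) took the opposite course. It had no count in control, 0, 19, and 45 counts at 2 h, 21, 28, and 38 at 4 h, 23, 21, and 13 at 8 h, and 15, 16, and 19 at 12 h. The counts were 28, 59, and 80 at 24 h, 170, 145, and 131 at 48 h, 85, 124, and 168 at 72 h, and 162, 154, and 136 at 96 h. All late libraries were above all early ones. The 96 h level of 8.92 CPM was at least 174-fold higher than the control limit. It rose from 12 to 24 h (log2 fold change 2.06 ± 0.60 SE, adjusted p = 0.0175) and late against early (2.75 ± 0.40 SE, adjusted p = 2.12e-06, edgeR's quasi-likelihood test).

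Transcript 2460 (2161 bases) was likewise higher late, with more spread. It had 0, 1, and 0 counts in control, 4, 46, and 57 at 2 h, 74, 40, and 59 at 4 h, 33, 44, and 33 at 8 h, and 36, 36, and 55 at 12 h. It had 41, 9, and 91 at 24 h, 94, 78, and 83 at 48 h, 40, 73, and 122 at 72 h, and 108, 136, and 142 at 96 h. The 96 h libraries were above all libraries except 1 of 72 h, and early and late libraries overlapped. Late against early it rose by a log2 fold change of 1.32 ± 0.39 (SE, adjusted p = 0.00486), and among the salt time points the adjusted p was 0.0213 by edgeR's quasi-likelihood test. Leaving out replicate 3 at 96 h brought the latter to 0.0659.

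Of the 10 most counted transcripts, 4 had their highest mean at 8 h, namely transcripts 1766, 71, 1634, and 599. Transcript 1766 (3413 bases) had 2, 1, and 0 counts in control, 78, 91, and 80 at 2 h, 40, 62, and 71 at 4 h, 140, 137, and 151 at 8 h, and 14, 36, and 27 at 12 h. Counts at 24 h were 18, 4, and 2, at 48 h 25, 12, and 18, at 72 h 0, 22, and 37, and at 96 h 42, 39, and 41. The 8 h libraries were above all others. From 8 to 12 h it fell by 2.27 on the log2 scale (SE 0.66, adjusted p = 0.0104, edgeR's quasi-likelihood test).

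Transcript 71 (1955 bases) had no count in control, 0, 64, and 86 counts at 2 h, 28, 56, and 53 at 4 h, and 130, 152, and 125 at 8 h. Later it had 47, 19, and 68 at 12 h, 6, 30, and 1 at 24 h, 23, 32, and 13 at 48 h, 12, 33, and 32 at 72 h, and 64, 57, and 44 at 96 h. The 8 h libraries again stood above all others, and their pooled level was at least 146-fold higher than the control limit. The adjusted p among salt time points was 0.0388 by edgeR's quasi-likelihood test, and leaving out 1 of 11 single libraries brought it to between 0.0508 and 0.117.

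Transcript 1634 (1555 bases) had 1, 0, and 0 counts in control, 37, 29, and 20 at 2 h, 55, 31, and 76 at 4 h, 93, 136, and 118 at 8 h, and 44, 30, and 13 at 12 h. It had 52, 19, and 0 at 24 h, 30, 39, and 27 at 48 h, 43, 20, and 25 at 72 h, and 26, 44, and 28 at 96 h. All 8 h libraries had the highest counts, but the adjusted p over the salt time points was 0.126 in edgeR's quasi-likelihood test (0.0474 in DESeq2 and 0.0235 without both libraries that stood apart). Leaving out replicate 1 or replicate 3 at 24 h gave 0.0268 and 0.0326.

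Transcript 599 (642 bases) was counted in all 27 libraries except 1 of control. It had 1, 0, and 1 counts in control, 28, 40, and 47 at 2 h, 45, 48, and 44 at 4 h, 61, 84, and 81 at 8 h, and 12, 10, and 42 at 12 h. It had 28, 40, and 8 at 24 h, 25, 31, and 49 at 48 h, 33, 9, and 35 at 72 h, and 43, 34, and 35 at 96 h. Among the salt time points no change was called (adjusted p = 0.279, edgeR's quasi-likelihood test), while the single step from 8 to 12 h was (log2 fold change −1.69 ± 0.58 SE, adjusted p = 0.0325).

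Transcript 1493, the longest of the set at 7775 bases, had 0, 2, and 0 counts in control, 53, 69, and 77 at 2 h, 90, 28, and 16 at 4 h, 21, 40, and 32 at 8 h, and 9, 19, and 4 at 12 h. It had 16, 0, and 0 at 24 h, 19, 14, and 21 at 48 h, 45, 10, and 24 at 72 h, and 45, 82, and 17 at 96 h. Single libraries were high at 4, 72, and 96 h, and most conditions overlapped. The adjusted p of 0.0551 missed the threshold in edgeR's quasi-likelihood test, while it was 0.00850 in DESeq2, 0.0497 with RLE size factors, 0.0480 with the 24 salt libraries alone, and 0.0281 without both libraries that stood apart. In edgeR's quasi-likelihood test with the replicate number as a block it was 0.0359. It was also under 0.05 with 1 of 8 single libraries left out, from 0.00173 without replicate 1 at 24 h to 0.0488 without replicate 3 of control.

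**Figure D5:**
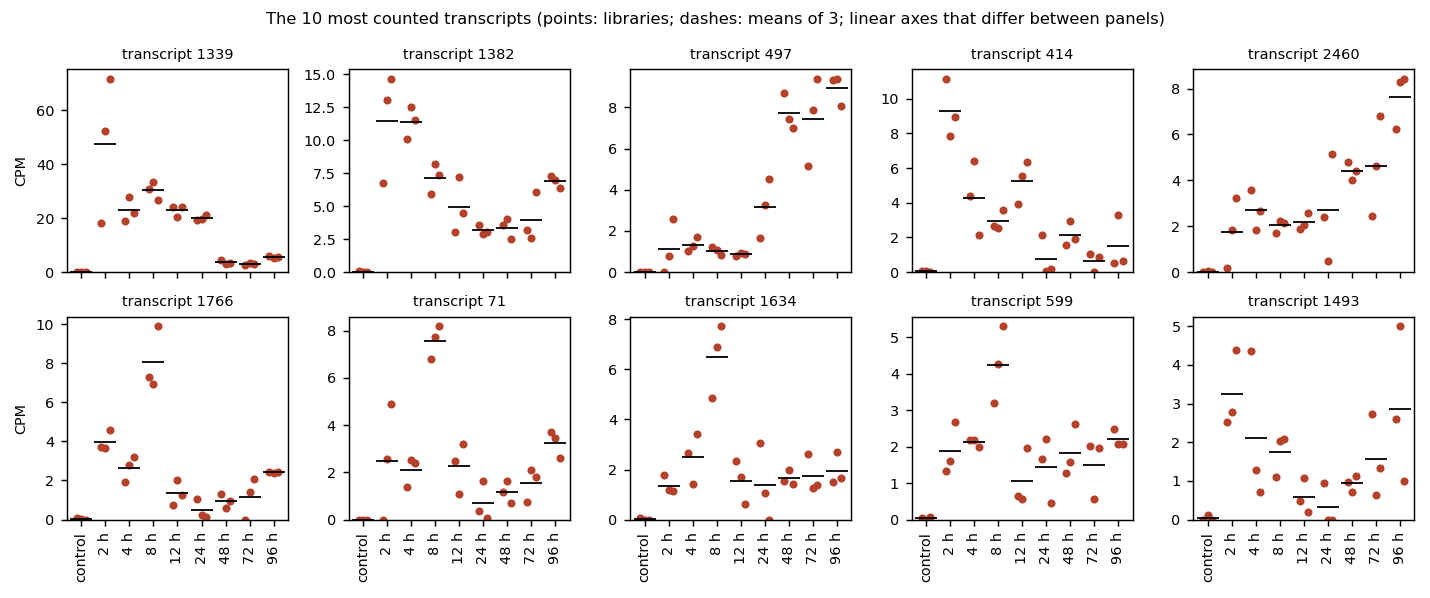
CPM of the 10 most counted of the 150 transcripts in each library (points) with the mean of each condition (dashes, n = 3), on linear axes that differ between panels. Transcripts 1339 and 414 are highest at 2 h, transcripts 497 and 2460 at 96 h, and transcripts 1766, 71, 1634, and 599 at 8 h.

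Per length, the order of the set was different from the third rank on. After transcript 1339, the highest mean FPKM at any time were those of transcript 1382 (13.9 ± 1.88 at 2 h) and transcript 2140 (12.7 ± 2.16 at 8 h, SD, n = 3), a transcript of 211 bases that was chosen for mention after its values were seen. The FPKM of transcript 2140 at 8 h was 10.2, 13.4, and 14.3, which overlapped with the 12.0, 14.0, and 15.7 of transcript 1382 at 2 h. At 12 h transcript 2140 had an FPKM of 2.27, 2.64, and 1.31. No other transcript of the set exceeded a mean FPKM of 5.46, that of transcript 599 at 8 h.

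For each time point, the transcript with the largest share of its summed mean CPM at that time was taken from those with at least 10 counts in all 3 libraries of that time. As they were chosen for their course, their values are given as a description with no test. The counting intervals given for some of them leave that choice out, so they cannot test the course either. At 2 h this was transcript 2576. Transcript 2576 had 58, 153, and 122 counts at 2 h, 59, 29, and 27 at 4 h, 7, 6, and 9 at 8 h, and 0, 0, and 9 at 12 h. After that it had 0 at 24 h, 0, 1, and 0 at 48 h, and 0 at 72 and 96 h, as in control. The 2 h mean was 69.0% of its summed mean CPM, early libraries were above all late ones, and the pooled early level was 555 times the late one (95% counting interval 99.1 to 21968, 448 counts against 1).

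At 8 h the leader was transcript 4082, with 82.3%. It had 1, 0, and 0 counts in control, 0, 0, and 4 at 2 h, 0, 10, and 0 at 4 h, and 37, 73, and 38 at 8 h. Afterwards it had 3, 0, and 0 at 12 h, 0 at 24 and 48 h, 0, 6, and 2 at 72 h, and 0, 2, and 5 at 96 h. No library outside 8 h reached its 8 h counts, and the 8 h level was 52.8 times that of 12 h (17.7 to 259, 148 counts against 3).

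At 4 h it was transcript 1625, with 34.2%. It had no count in control, 0, 7, and 6 counts at 2 h, 17, 27, and 41 at 4 h, 14, 30, and 21 at 8 h, 7, 18, and 9 at 12 h, and 2, 7, and 11 at 24 h. It then had 0, 0, and 1 at 48 h, 0, 0, and 5 at 72 h, and 0 at 96 h. The 4 and 8 h libraries overlapped, and late libraries were at or near 0. Pooled, the early level was 20.2 times the late one (8.97 to 56.5, 98 counts against 6).

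Transcript 1 was not counted early and led at 12 h, with 38.5% of its summed mean CPM. It had 0, 0, and 1 counts in control, 0 at 2 and 4 h, 3, 3, and 0 at 8 h, 22, 26, and 35 at 12 h, and 0, 14, and 35 at 24 h. It had 23, 3, and 5 at 48 h, 10, 0, and 10 at 72 h, and 5, 9, and 3 at 96 h. The 12 h libraries did not overlap with those of 8 h, and the late level was at least 18.3-fold higher than the limit for a count of 0 over the early libraries (68 counts against 0). At 24 h the highest share within this limit was the 12.8% of transcript 1339.

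The late leaders were transcript 1190 at 48 h (35.7%), transcript 3331 at 72 h (32.9%), and transcript 327 at 96 h (44.9%). Transcript 1190 had 2, 0, and 0 counts in control, 8, 2, and 0 at 2 h, 0, 3, and 5 at 4 h, 3, 4, and 19 at 8 h, 2, 5, and 2 at 12 h, and 0, 10, and 7 at 24 h. It had 39, 49, and 35 at 48 h, 18, 4, and 19 at 72 h, and 48, 22, and 19 at 96 h. Replicate 2 of 72 h lay within the early range.

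Transcript 3331 had 2, 0, and 0 counts in control, 44, 31, and 0 at 2 h, 14, 19, and 21 at 4 h, 22, 12, and 15 at 8 h, 6, 0, and 3 at 12 h, and 0, 6, and 0 at 24 h. It had 27, 10, and 24 at 48 h, 85, 61, and 62 at 72 h, and 95, 61, and 62 at 96 h. The 72 and 96 h libraries were above all others.

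Transcript 327 had 1, 0, and 1 counts in control, 0, 3, and 2 at 2 h, 5, 13, and 1 at 4 h, 17, 23, and 8 at 8 h, 8, 5, and 27 at 12 h, and 7, 16, and 0 at 24 h. It had 10, 9, and 13 at 48 h, 11, 21, and 32 at 72 h, and 30, 55, and 85 at 96 h. The 96 h libraries were high and spread widely, and late and early libraries overlapped.

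Others rested on 1 library. A single library held over 50% of the salt counts of 3 transcripts and over 25% of those of 18, with a median of 15.5% for the highest library. Transcript 2998 had 66 counts in replicate 1 at 8 h beside 0 and 5 in the others of that time. Transcript 511 had 41 in replicate 1 at 2 h beside 6 and 3, and transcript 715 had 69 there beside 4 and 0. All 3 failed the filter on low counts. The library with the high count of transcripts 511 and 715 is one of those that stood apart, as given above.

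Between neighboring time points, few of the 110 tested transcripts were called. In the steps up to 48 h, the shares were below those over all genes by edgeR's quasi-likelihood test. The same held in each of the 34 fits run, which reuse mostly the same libraries. From 2 to 4 h, 0 rose and 2 fell, where 5.76% of all genes rose and 6.26% fell. From 4 to 8 h, 7 rose and 2 fell, against 16.3% and 17.9% of all genes. From 8 to 12 h, 1 rose and 6 fell, against 15.0% and 11.2%. From 12 to 24 h, 2 rose and 5 fell, against 8.93% and 9.55%, and from 24 to 48 h, 1 rose and 2 fell, against 6.42% and 7.46%. No call was made from 48 to 72 h (1.67% of all genes rose and 1.33% fell, 10 transcripts at an unadjusted p below 0.05, 0 in DESeq2) or from 72 to 96 h (0.0426% and 0.122% of all genes, 7 unadjusted, 0 in DESeq2). In both of these later steps, so few of all genes were called that 0 of the 110 does not set the transcripts apart. Neighboring steps share libraries.

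These step counts were small and moved with single libraries. The number tested and the shares over all genes moved as well, and in each fit the shares of the transcripts stayed below those over all genes. From 4 to 8 h, 13 of 127 tested rose without replicate 1 at 2 h. It was 12 of 130 without replicate 1 at 72 h and 11 of 131 without replicate 1 at 24 h. Without both libraries that stood apart, 16 of 126 rose (12.7%, against 19.9% of all genes in that fit). From 8 to 12 h, 10 of 132 fell without replicate 3 at 24 h. Without both libraries, 13 of 126 fell (10.3%, against 15.4% of all genes). From 12 to 24 h, 0 of 132 fell without replicate 3 at 24 h (6.52% of all genes) and 1 of 132 without replicate 2 (6.89%). Without replicate 1 at 24 h, at 2 h, or at 72 h, 11 fell. These were 8.40%, 8.66%, and 8.46% of those tested, against 11.2%, 11.8%, and 10.9% of all genes. Without both libraries, 14 of 126 fell (11.1%, against 14.2% of all genes in that fit). From 24 to 48 h, 5 of 131 rose without replicate 1 at 24 h and 3 of 132 without replicate 3 at 96 h. Without both libraries, 7 of 126 rose (5.56%, against 10.3% of all genes). The counts of 1 or 2 moved, between 0 and 5, with 5 or more single libraries each, and from 2 to 4 h the 0 that rose became 1 without replicate 3 at 2 h.

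Among the transcripts called in single steps, transcript 2165 went from 6, 5, and 14 counts at 4 h to 42, 51, and 23 at 8 h, and it was chosen for mention after its values were seen. It had no count in control and 0, 2, and 7 counts at 2 h. From 12 h on it had 32, 43, and 63, then 26, 12, and 8 at 24 h, 25, 41, and 29 at 48 h, 36, 65, and 36 at 72 h, and 44, 48, and 69 at 96 h. All late libraries were above all early ones, with a log2 fold change of 3.31 ± 0.48 (SE, adjusted p = 2.12e-06, edgeR's quasi-likelihood test), and its step from 4 to 8 h was 2.25 ± 0.66 (SE, adjusted p = 0.00968). Its 96 h level was at least 61.9-fold higher than the control limit.

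Some of the 150 transcripts carry consecutive numbers, 32 of them in 15 runs. How the numbers relate to positions in the genome is not given in the sources used here. Over the 24 salt libraries, log2(CPM + 1) of the 17 consecutive pairs had a median Pearson r of 0.31, from −0.18 to 0.84, beside a median of 0.11 over all 11175 pairs of the set. All pairs share the same libraries and their depth. The highest were transcripts 414 and 415 (0.84) and transcripts 2879 and 2880 (0.79). Transcript 415 had 102, 52, and 29 counts at 2 h and 23, 4, and 11 at 72 h, and it was lower late as transcript 414 was (log2 fold change −1.67 ± 0.56 SE, adjusted p = 0.0119, edgeR's quasi-likelihood test).

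For the 5 most counted transcripts, the annotated gene with the most similar course over the 24 salt libraries was looked up among 9920 CHLREDRAFT genes. The Pearson r of log2(CPM + 1) was 0.96 for transcript 1339 with CHLREDRAFT_114525, 0.91 for transcript 1382 with CHLREDRAFT_149313, and 0.95 for transcript 497 with CHLREDRAFT_191453. It was 0.95 for transcript 414 with CHLREDRAFT_186548 and 0.88 for transcript 2460 with CHLREDRAFT_141676. Each is the highest of many values over shared libraries and is a description. The annotated genes were not chosen by their control counts and had 3098 to 4604 counts for CHLREDRAFT_114525, 684 to 1259 for CHLREDRAFT_186548, 444 to 555 for CHLREDRAFT_141676, 255 to 400 for CHLREDRAFT_191453, and 23 to 43 for CHLREDRAFT_149313.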

How the data were processed

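Counts per gene were deposited by the authors as whole numbers without normalization. For these, paired reads were filtered, aligned with HISAT2 2.0.5, and assigned to genes with featureCounts, and StringTie 1.3.3b assembled transcripts sample by sample. The FPKM values were deposited by the authors as well and carry size factors between libraries. The reference genome and annotation came from Ensembl Genomes, in a release the authors give. The name of the build, the treatment of reads with several alignments, and the use of strand are not given in the sources used here. Gene lengths were computed as count over FPKM and came out whole, within 0.01 base, for 12719 of 12719 genes averaging 50 counts or more. A reference table of 17742 genes matched 12541 of the 19267 identifiers.

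Samples were grouped by their labels. Counts were tested with edgeR 4.0.16 in R 4.3.3 (filterByExpr, TMM, 1 quasi-likelihood fit with 9 condition terms, 16443 genes, two-sided, Benjamini-Hochberg adjusted p below 0.05), and the steps were tested on simulated data. With 3 samples against 3, p-values of single genes rest on this fit across genes. CPM, shares, and ratios were computed in Python 3.11.15 with pandas 2.3.3, numpy 2.4.6, and scipy 1.17.1, and figures were drawn with matplotlib 3.10.9. Intervals of ratios are exact 95% intervals of counts pooled over libraries.

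Transcripts named are the 10 most counted, the one with the largest share of its CPM at each time among those with at least 10 counts in its 3 libraries, those around the thresholds, the 3 resting most on 1 library, the 3 with the highest count in their lowest library, and the most similar annotated genes. The set and these lists were chosen with earlier results of these data known. Alternatives comprised a replicate block, DESeq2 1.42.0, no filter, RLE size factors, the 24 salt libraries alone, a log2 fold change above 1, TMM library sizes or the median CPM for the shares, other forms of the rule, and the omission of single libraries (27 in turn). Sequences of the transcripts were not used here.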

Additional observations from a re-analysis of the deposited data

How the results depend on the processing

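The calls over all salt time points (46) ranged from 41 to 60 with single libraries left out. Those late against early ranged from 14 to 20 higher (13 with all libraries) and from 20 to 32 lower (25). The fits with single libraries left out tested 126 to 132 of the transcripts, against 110 with all libraries. The ranges, here and for the steps below, therefore do not show how far calls among the same 110 moved. In each of these fits, the shares called were below those over all genes. Leaving out replicate 1 of 2 h and of 72 h together was chosen after seeing the data. Among 126 transcripts tested, it gave 16 higher and 5 lower from 4 to 8 h (7 and 2). From 8 to 12 h it gave 13 lower (6), and from 12 to 24 h 4 higher and 14 lower (2 and 5). From 24 to 48 h, 7 were higher (1). DESeq2 gave 4 lower from 4 to 8 h, 11 lower from 12 to 24 h, and 5 higher from 24 to 48 h. From 4 to 8 h, RLE size factors gave 1 lower, no filter 0, the 24 salt libraries alone 4, and a log2 fold change above 1 gave 1. No filter gave 1 lower from 2 to 4 h (2). The causes were not tested. With single libraries left out, calls higher and lower were 0 to 1 and 1 to 3 from 2 to 4 h, 5 to 13 and 0 to 4 from 4 to 8 h, 0 to 2 and 4 to 10 from 8 to 12 h, 0 to 4 and 0 to 11 from 12 to 24 h, 0 to 5 and 1 to 2 from 24 to 48 h, and 0 in both later steps.

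With the replicate number as a block, 47 transcripts changed among the salt time points, and 1 was lower from 2 to 4 h, 0 lower from 4 to 8 h, and 1 higher from 12 to 24 h, while transcript 1493 had an adjusted p of 0.0359. Deviations of same-numbered libraries had a median correlation of −0.00034 over 108 pairs, with 13 over 0.1. Those of libraries with different numbers had 0.0025 over 216 pairs, with 23 over 0.1. No pairing by number was seen, which does not show that same-numbered samples shared nothing. With no control count allowed, 69 of the 150 transcripts met the rule, and with 1 salt library left out 144 to 149 of the 150 were chosen again. TMM library sizes gave shares of 123 (8 h) and 66.0 (24 h) CPM. The ratio of 8 to 24 h (2.58) was 1.87 with TMM library sizes and 2.44 to 2.71 with single libraries left out. For the median CPM it was 20.9, set against 24 h medians at the floor (0 to 0.0589 CPM). Late against early, 4 uncalled transcripts turned to a positive log2 fold change without 1 library. With single libraries left out, transcript 71 ranged from −0.59 to 0.13 (without replicate 3 at 2 h) and transcript 1634 from −0.35 to 0.15 (without replicate 1 at 2 h), with 0.08 without replicate 3 at 4 h. Transcript 599 ranged from −0.30 to 0.034 (without replicate 2 at 72 h), and transcript 4082 from −1.42 to 1.26 (without replicate 2 at 4 h), with 0.78 without replicate 3 at 2 h. Depth was low for most of the set, with 92 of the 150 transcripts reaching 10 counts in all 3 libraries at no time point.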
